A study of Homo sapiens with 12 samples.

Results

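Messenger RNA levels of TMEFF2 and TMEFF1 and of the growth factor genes that TMEFF proteins are known to act on were described in LNCaP cells, a line from a human prostate cancer that responds to androgen. The 9 genes were chosen by name and by no rule on their measured values, but earlier results of these data were known. They were the TMEFF genes themselves, the platelet-derived growth factor gene PDGFA with its receptor gene PDGFRA, and 5 genes of the activin system, ACVR1B, ACVR2A, ACVR2B, INHBB and FST. All 9 were among the 34643 gene symbols of the count table, and 6 of them were among the 15419 genes abundant enough to be tested. TMEFF1, PDGFRA and FST were near 0 and are given by their counts.

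All cells had been transduced with a pLKO.1-puro lentivirus and selected in puromycin. The vector expressed, from the U6 promoter, an shRNA directed at TMEFF2 in the line called sh_TMEFF2 and a control shRNA with a scrambled sequence in sh_scramble, so that the control cells also carried the vector. About 2.5 weeks after transduction both lines were kept for 24 h in medium with charcoal-stripped serum, which depletes androgen, and then received 10 nM dihydrotestosterone (DHT, an androgen; +DHT) or ethanol vehicle (−DHT) for 24 h. Each of the 4 groups had 3 libraries. These were separate treatments and extractions from 2 transductions, and which library came from which transduction is not stated, so p-values measure the spread between these libraries. Libraries held 19450866 to 22612046 counts (median 21194622), and the 10 most abundant genes took 4.0% to 5.46% of a library. Levels are given as CPM, the counts of a gene relative to the total of its library after TMM normalization. Of markers of cell types other than luminal epithelium, 1 of 3 basal, 2 of 3 endothelial and 2 of 3 blood markers were past the filter on low counts, with summed levels of 0 to 1.77, 13.3 to 29.5 and 7.86 to 12.6 CPM per library. The endothelial and blood levels came from VWF and PECAM1 and from PTPRC and CD68, with means over the 12 libraries of 19.2, 0.925, 5.18 and 5.47 CPM, while KRT5, CDH5 and HBB were at or under 3 counts in every library. KLK3, the gene of prostate-specific antigen and a well-known androgen target, lay at 1900 to 1953 CPM without and 7219 to 7737 with DHT in sh_scramble, and at 254.9 to 508.5 and 1452 to 2474 CPM in the sh_TMEFF2 groups.

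TMEFF2 and TMEFF1 are transmembrane proteins whose outer part holds an EGF-like domain and a pair of follistatin-like domains, and TMEFF2 is expressed mainly in brain and prostate. Proteases can release the outer part of TMEFF2 from the cell, and the released form binds PDGF-AA, the dimer of the PDGFA product, whose receptor is encoded by PDGFRA. Follistatin, the product of FST, binds and neutralizes activins, which are dimers of inhibin beta subunits such as the INHBB product. Activins signal through the type II receptors ACVR2A and ACVR2B, which recruit the type I receptor ACVR1B and lead to phosphorylation of SMAD2 and SMAD3. TMEFF proteins have also been linked to this receptor system and to its coreceptors.

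The target sequences of shTMEFF2-1 and shTMEFF2-2, shRNAs of the study, are given because they show on which stretches of TMEFF2 mRNA the shRNAs were designed. Targets are given as lines of mRNA sequence on the TMEFF2 strand, 5′ to 3′, with the target in capitals and the neighbouring mRNA bases in lower case. Which shRNA the sequenced cells carried is not stated.
shTMEFF2-1: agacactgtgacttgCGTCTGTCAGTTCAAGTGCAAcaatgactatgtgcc
shTMEFF2-2: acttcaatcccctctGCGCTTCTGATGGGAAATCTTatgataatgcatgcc
Both lie in the coding sequence of TMEFF2 transcript ENST00000272771, which has 10 exons and 2799 bases, and both were present in 3 of 4 annotated TMEFF2 transcripts and in no transcript of another gene. In GRCh38, TMEFF2 is on the minus strand of chromosome 2 (chr2:191949043-192194933). The shTMEFF2-1 target takes 16 bases from exon 2 (chr2:192191880-192191895) and 5 bases from exon 3 (chr2:192184479-192184483), and the shTMEFF2-2 target lies in exon 6 (chr2:191999141-191999161).

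TMEFF1 is the paralog of TMEFF2, so its best ungapped match to each target is also shown, with the bases that differ from the target in capitals.
TMEFF1 against shTMEFF2-1: TgCAtgCcaAttTCagtgcCa
TMEFF1 against shTMEFF2-2: gTgcttctgatgggaGTtcCt
The former match differed from its target at 8 of 21 bases and the latter at 4 of 21, and the read-through gene MSANTD3-TMEFF1 holds the same stretches. In the other 7 genes the closest sites differed by 6 to 8 bases.

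Per kilobase of the reference (MANE) transcript, averaged over the 12 libraries, TMEFF2 had the highest level of the 9 genes, with 37.2 CPM per kb. ACVR1B followed with 11.4 CPM per kb. The ligand and type II receptor genes were lower, with ACVR2A at 2.83, INHBB at 2.33, PDGFA at 1.87 and ACVR2B at 0.819 CPM per kb. FST (0.0428), PDGFRA (0.0355) and TMEFF1 (0.00586 CPM per kb) lay far under these. LNCaP cells therefore held mRNA for a PDGF-A and an activin B subunit and for the activin receptors of both types, and hardly any for the PDGF alpha receptor or follistatin. The deposited counts were already scaled to transcript length, and which transcript of each gene was expressed was not examined. The values per kb are therefore approximate. The value of TMEFF1 rests on the few counts assigned to it, and reads from exons it shares with a read-through gene may be counted there. The plot of levels by group shows each library of the 6 tested genes.

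**Figure D1:**
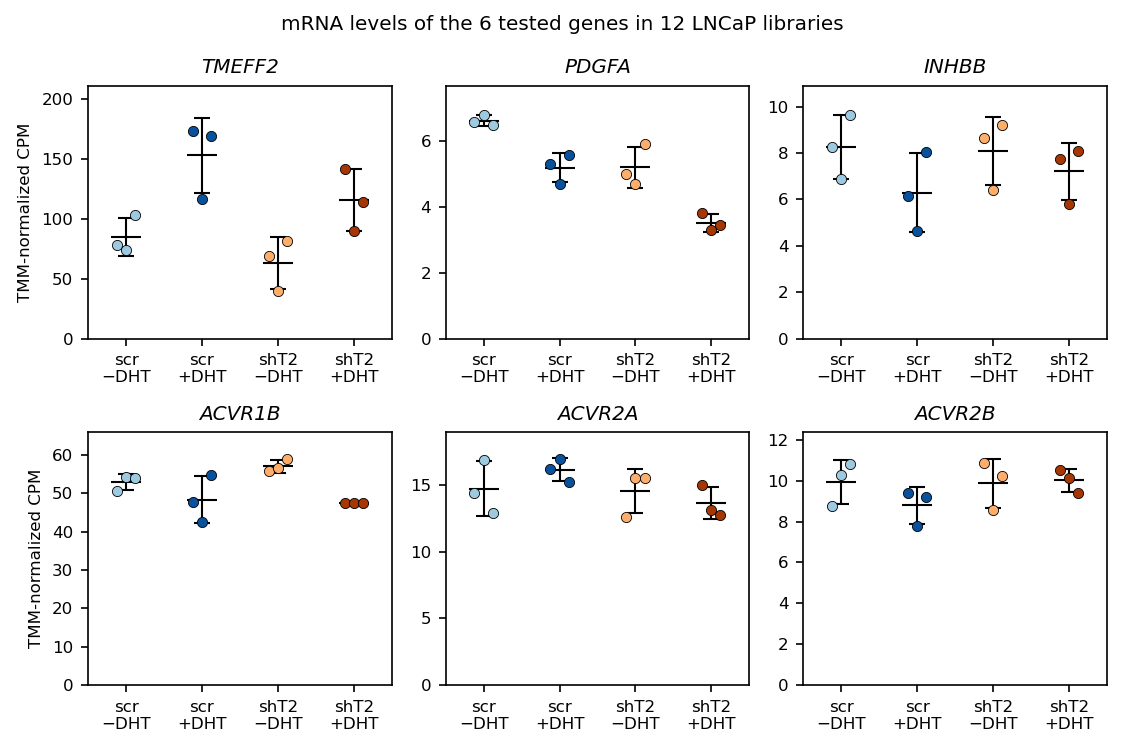
TMM-normalized CPM (axis from 0) of TMEFF2, PDGFA, INHBB, ACVR1B, ACVR2A and ACVR2B in 4 groups (scr, sh_scramble; shT2, sh_TMEFF2; −DHT and +DHT). Points are libraries and bars are the mean ± SD of 3 libraries; TMEFF2 is higher with DHT in both lines, and PDGFA is lowest in sh_TMEFF2 +DHT, at 3.29 to 3.80 CPM.

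As a check of the labels, the level of the silenced gene itself was read first. In CPM TMEFF2 lay at 77.8, 73.8 and 103 in the sh_scramble −DHT libraries and at 68.7, 39.4 and 81.7 in sh_TMEFF2 −DHT. With DHT it lay at 173, 117 and 169 in sh_scramble and at 142, 90.1 and 115 in sh_TMEFF2. The means were thus lower in the silenced line at both DHT levels, but the libraries of the lines overlapped. Replicate 2 was the lowest in every group. Each sh_TMEFF2 library was below the sh_scramble library of the same number at the same DHT level. In such bulk libraries fewer cells with a transcript and less of it per cell cannot be told apart. Without DHT the difference between the lines was 0.744-fold (95% interval 0.512 to 1.08, log2 −0.43, SE 0.249) and did not pass the test (adjusted p = 0.503 from the quasi-likelihood test of edgeR, adjusted over the 15419 genes by the Benjamini-Hochberg method, as for every adjusted p here). With DHT it was 0.754-fold (0.521 to 1.09, log2 −0.41, SE 0.245, adjusted p = 0.304). Leaving out 1 library at a time gave log2 values from −0.65 to −0.18 without DHT and from −0.58 to −0.24 with DHT. The values nearest to 0 came without replicate 2 of sh_TMEFF2 −DHT and of sh_TMEFF2 +DHT. The lowest adjusted p over all alternatives was 0.124 without and 0.0689 with DHT. Both came from edgeR with the replicate number added to the fit as a block. The counts cover the whole gene, with no other gene's exons overlapping it, and the shRNA leaves no deleted part whose reads could be counted apart. The paper reports that TMEFF2 was silenced in LNCaP cells, citing Western blots and mRNA levels. A Western blot reads protein, which these counts do not measure. The paper's mRNA levels, of silenced and control LNCaP cells with and without DHT, are the same kind of measure as here. They are shown in a figure, and the paper's text gives no values to set beside these.

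TMEFF2 mRNA was higher with DHT in both lines. It rose 1.80-fold in sh_scramble, from 85.0 ± 15.9 to 153 ± 31.4 CPM (SD, n = 3; 95% interval 1.24 to 2.62, log2 0.85, SE 0.248, edgeR adjusted p = 0.0227). In sh_TMEFF2 it rose 1.83-fold, from 63.2 ± 21.7 to 116 ± 26.0 CPM (SD, n = 3; 1.26 to 2.66, log2 0.87, SE 0.249, edgeR adjusted p = 0.0377). The groups with and without DHT did not overlap in either line, and TMEFF2 was higher with DHT in every pair of libraries with the same replicate number, by 2.23, 1.58 and 1.64 times in sh_scramble and by 2.07, 2.29 and 1.40 times in sh_TMEFF2. The lowest value of all was in sh_TMEFF2 −DHT replicate 2.

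TMEFF2 was the 1 of the 6 tested genes that was called in the DHT comparison of each line, with limits of 1.5-fold and an adjusted p of 0.05. Over all genes tested 11.9% were called in sh_scramble (5.45% as higher) and 4.88% in sh_TMEFF2 (3.28% as higher). This fit had no block for the replicate number, and in it both calls depended on single libraries. In sh_scramble the call was lost without −DHT replicate 1 or 2 or +DHT replicate 1 or 3 (log2 0.75 to 0.79, adjusted p = 0.0667 to 0.0800 by edgeR), and in sh_TMEFF2 without the libraries of the same numbers (log2 0.62 to 0.93, adjusted p = 0.0779 to 0.113 by edgeR). The direction held in all 22 alternatives in each line. With the replicate number as a block and all libraries kept, TMEFF2 was called in both lines (edgeR adjusted p = 0.00119 in sh_scramble and 0.00201 in sh_TMEFF2).

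The size of the TMEFF2 response did not differ detectably between the lines. The difference of the log2 responses was 0.02 (SE 0.349, edgeR adjusted p = 0.986). As a ratio of the fold changes, sh_TMEFF2 to sh_scramble, it was 1.01, with a 95% interval from 0.600 to 1.71.

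Genes whose levels followed TMEFF2 most closely over the 12 libraries were looked for among 11155 genes with a mean of at least 5 CPM, by the root mean square difference of log2 CPM after each gene was centred on its own mean. The nearest were EGFR (0.268), which encodes the epidermal growth factor receptor, SAP30 (0.271), a subunit of a histone deacetylase complex, and TMEM268 (0.275), a transmembrane protein gene. TMEFF2's own spread about its mean by the same measure was 0.581, and the median distance of the other genes was 0.596. EGFR lay at 74.0 ± 18.5 CPM in sh_scramble −DHT, 118 ± 19.8 in sh_scramble +DHT, 55.0 ± 9.63 in sh_TMEFF2 −DHT and 77.7 ± 5.95 in sh_TMEFF2 +DHT (SD, n = 3). SAP30 had 5.38, 8.11, 4.24 and 7.17 CPM and TMEM268 34.7, 60.4, 31.2 and 42.9 CPM in the same groups, so all 3 genes had the order of group means of TMEFF2. They were chosen for this likeness, and no test of them is given. The plot of centred profiles shows that sh_TMEFF2 −DHT replicate 2 was the lowest library of all 4 genes.

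**Figure D2:**
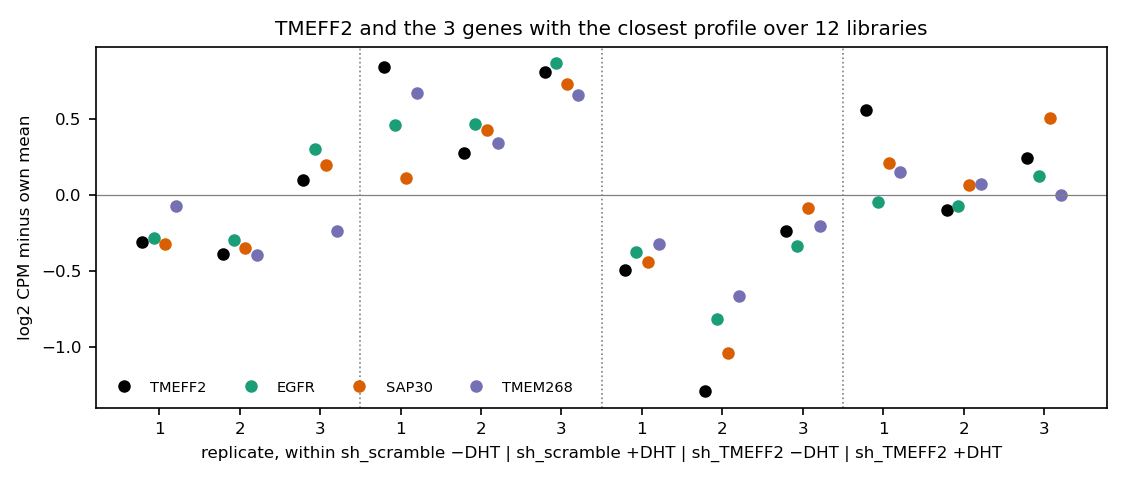
log2 CPM minus the gene's own mean over 12 libraries (vertical axis) for TMEFF2, EGFR, SAP30 and TMEM268, by group and replicate (horizontal axis). Each point is 1 library; the replicate numbers carry no order. All 4 genes are lowest in sh_TMEFF2 −DHT replicate 2.

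TMEFF1 could not be measured. It had 4 counts in all, every one in sh_scramble −DHT replicate 1, and 0 in the other 11 libraries, where 3 counts, or 0.133 to 0.154 CPM, are the limit that a count of 0 allows (counting error only). The annotation holds a read-through gene, MSANTD3-TMEFF1, on the same strand of chromosome 9, which joins the neighbouring gene MSANTD3 to exons of TMEFF1 (chr9:100442271-100577636, TMEFF1 itself at chr9:100473149-100577636). It was added to the description after its values were seen, and reads from the shared exons cannot be assigned to the one or the other with certainty.

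MSANTD3-TMEFF1 had 257 counts in all. Its levels were 1.36, 1.44 and 1.08 CPM in sh_scramble −DHT and 0.404, 0.537 and 1.05 in sh_scramble +DHT. In sh_TMEFF2 they were 1.83, 0.885 and 1.25 CPM without and 1.16, 0.548 and 0.668 with DHT. Groups with and without DHT did not overlap in sh_scramble and overlapped in sh_TMEFF2, and neither difference passed the test (log2 −0.95, SE 0.417, edgeR adjusted p = 0.111 and log2 −0.73, SE 0.405, edgeR adjusted p = 0.272). Without sh_scramble +DHT replicate 3 the value in sh_scramble was −1.44 and was called (edgeR adjusted p = 0.0375). The plot of low counts gives these genes by library.

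**Figure D3:**
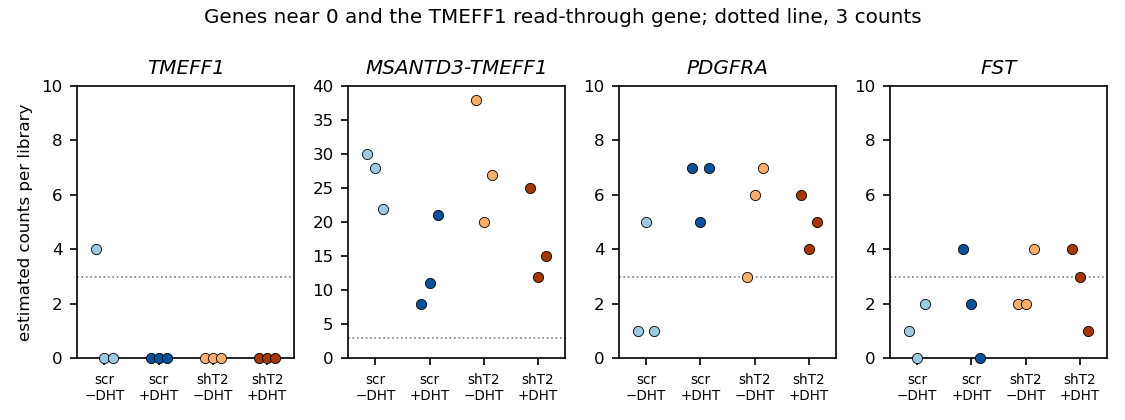
Estimated counts per library (vertical axis; the axis of MSANTD3-TMEFF1 is longer) for TMEFF1, the read-through gene MSANTD3-TMEFF1, PDGFRA and FST in 4 groups (scr, sh_scramble; shT2, sh_TMEFF2; −DHT and +DHT). Points are libraries and the dotted line marks 3 counts; TMEFF1 is at 0 in 11 of 12 libraries, and PDGFRA and FST do not exceed 7 and 4 counts.

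PDGFA (chr7:497258-520296, minus strand), the gene of the PDGF-A chain, was lower with DHT than without in each line and lower in sh_TMEFF2 than in sh_scramble at each DHT level. Its levels were 6.56, 6.78 and 6.46 CPM in sh_scramble −DHT, 5.30, 4.69 and 5.55 in sh_scramble +DHT, 5.0, 4.69 and 5.89 in sh_TMEFF2 −DHT and 3.80, 3.29 and 3.43 in sh_TMEFF2 +DHT. All 3 libraries of sh_scramble −DHT were above all others, and all 3 of sh_TMEFF2 +DHT were below all others. The middle groups, sh_TMEFF2 −DHT (5.20 ± 0.625 CPM, SD, n = 3) and sh_scramble +DHT (5.18 ± 0.445), overlapped. Counts of PDGFA ranged from 72 to 145 per library.

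With DHT in sh_TMEFF2, PDGFA was 1.48-fold lower (log2 −0.57, SE 0.145, edgeR adjusted p = 0.0232). With DHT it was also 1.48-fold lower in sh_TMEFF2 than in sh_scramble (log2 −0.56, SE 0.146, edgeR adjusted p = 0.0198). Both passed the adjusted p, as 13.1% and 16.0% of all genes tested did in these comparisons, and both fell just short of the 1.5-fold limit, so that PDGFA was not called. The remaining differences did not pass the test, with log2 −0.35 (SE 0.142, edgeR adjusted p = 0.0873) for DHT in sh_scramble and log2 −0.35 (SE 0.141, edgeR adjusted p = 0.299) between the lines without DHT. The 95% interval of the difference between the DHT responses ran from −0.66 to 0.22 on the log2 scale (value −0.22, SE 0.203, edgeR adjusted p = 0.662).

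Some libraries decided on which side of 1.5-fold PDGFA lay. The DHT comparison in sh_TMEFF2 reached a call without −DHT replicate 2 (log2 −0.64) or +DHT replicate 1 (log2 −0.63), and the comparison of the lines with DHT did so without sh_scramble +DHT replicate 2 (log2 −0.62) or sh_TMEFF2 +DHT replicate 1 (log2 −0.62). Over all 22 alternatives the adjusted p ranged from 0.0134 to 0.106 and from 0.0155 to 0.138. In the same comparisons of the lines, the summed level of the 6 fibroblast and stromal markers moved the other way, from 24.3 to 25.4 CPM in sh_scramble −DHT to 29.2 to 42.3 in sh_TMEFF2 −DHT, and from 20.2 to 25.7 to 28.4 to 31.3 with DHT. Of these markers 4 were past the filter, led by COL1A1 with a mean of 18.1 CPM, while DCN had 0.286 and COL1A2 0.210 CPM. The summed blood markers were also apart between the lines without DHT (7.86 to 9.69 CPM in sh_scramble, 11.2 to 12.6 in sh_TMEFF2) and overlapped with DHT. The summed endothelial markers overlapped without DHT and were apart with DHT (13.3 to 14.6 CPM in sh_scramble, 19.8 to 29.5 in sh_TMEFF2), and the summed basal markers with DHT were 0.879 to 1.77 and 0.0463 to 0.502 CPM. KLK3, given above, was lower in every sh_TMEFF2 library than in any sh_scramble library at the same DHT level. The part of these markers in the PDGFA result was not tested.

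PDGFRA (chr4:54229280-54298245), the receptor gene for PDGF-AA, had 57 counts in all, 1 to 7 per library. Its counts were 1, 5 and 1 in sh_scramble −DHT and 7, 5 and 7 in sh_scramble +DHT. They were 3, 6 and 7 in sh_TMEFF2 −DHT and 6, 4 and 5 in sh_TMEFF2 +DHT. At this depth no difference between the groups could be shown, and the gene did not enter the tests.

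Of the 7 genes of the PDGF family, PDGFC and PDGFD were also removed by the filter, and 4 were tested. None of the 4 was called in any comparison by edgeR, DESeq2 or limma-voom, and 1, PDGFA, had an unadjusted p under 0.05 in each of the 4 comparisons of groups. PDGFB, which encodes the other classical PDGF chain, lay between 10.5 and 16.0 CPM over the 12 libraries, with group means of 14.5, 12.3, 15.2 and 13.7 CPM in sh_scramble without and with DHT and sh_TMEFF2 without and with DHT. PDGFRB, the beta receptor gene, which is also a stromal marker, had group means of 0.970, 0.617, 1.13 and 0.574 CPM, and PDGFRL, a receptor-like gene, 1.66, 1.31, 1.59 and 1.71 CPM. The median log2 difference of the 4 genes with DHT was −0.34 in sh_scramble and −0.36 in sh_TMEFF2, beside −0.01 and −0.02 over all genes tested. Between the lines it was −0.00 without and 0.03 with DHT, beside −0.00 and 0.00.

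INHBB (chr2:120346136-120351803), the gene of the activin beta-B subunit, was at 8.24, 6.88 and 9.64 CPM in sh_scramble −DHT and 6.16, 4.64 and 8.05 in sh_scramble +DHT. In sh_TMEFF2 it was at 8.65, 6.42 and 9.19 CPM without and 7.73, 5.80 and 8.10 with DHT. Libraries with DHT were lower than those of the same number without DHT in all 6 pairs, by factors of 0.748, 0.674 and 0.835 in sh_scramble and 0.894, 0.903 and 0.881 in sh_TMEFF2, although the groups overlapped. Replicate 2 was the lowest and replicate 3 the highest in every group. Without regard to the numbers the difference with DHT did not pass the test (log2 −0.40, SE 0.219, edgeR adjusted p = 0.208 in sh_scramble and log2 −0.17, SE 0.217, edgeR adjusted p = 0.684 in sh_TMEFF2). With the replicate number as a block the value in sh_scramble was −0.41 with an edgeR adjusted p of 0.0225, under the 1.5-fold limit.

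FST (chr5:53480626-53487134), the gene of follistatin, had 25 counts in all. It was at 0 in 2 libraries and at or under 3 counts in 9, and its highest count was 4. It was not tested.

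ACVR1B (chr12:51951699-51997078), the gene of the type I receptor ALK4, lay at 50.6, 54.2 and 54.0 CPM in sh_scramble −DHT and at 47.7, 42.4 and 54.8 in sh_scramble +DHT. In sh_TMEFF2 it lay at 55.7, 56.5 and 59.0 CPM without DHT and at 47.6, 47.4 and 47.4 with DHT. The groups with and without DHT were apart in sh_TMEFF2, by 1.20-fold (log2 −0.27, SE 0.0823), and the edgeR adjusted p of 0.0507 missed the threshold narrowly, whereas with the replicate number as a block it was 0.0357. In sh_scramble the groups overlapped (log2 −0.13, SE 0.0826, edgeR adjusted p = 0.270). The difference between these responses was −0.14 on the log2 scale (SE 0.117, 95% interval −0.39 to 0.12, edgeR adjusted p = 0.625). Between the lines, the libraries without DHT did not overlap (log2 0.11, SE 0.0822, edgeR adjusted p = 0.630), and with DHT they did (log2 −0.03, SE 0.0826, edgeR adjusted p = 0.879).

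The type II receptor genes differed little. ACVR2A (chr2:147844517-147930826), which shares exonic bases with ORC4 on the opposite strand, ranged from 12.6 to 16.9 CPM over the 12 libraries. Its group means were 14.7 ± 2.04, 16.1 ± 0.845, 14.5 ± 1.68 and 13.6 ± 1.19 CPM (SD, n = 3) in sh_scramble without and with DHT and sh_TMEFF2 without and with DHT. With DHT the lines did not overlap, at 16.2, 16.9 and 15.3 CPM in sh_scramble and 15, 13.1 and 12.8 in sh_TMEFF2, and the difference did not pass the test (log2 −0.24, SE 0.125, edgeR adjusted p = 0.224). ACVR2B (chr3:38453890-38493142) ranged from 7.76 to 10.9 CPM, with means of 9.94 ± 1.08, 8.78 ± 0.890, 9.87 ± 1.20 and 10.0 ± 0.570 CPM (SD, n = 3) in the same order. With DHT its lines were apart only by a near tie (9.386 against 9.39 CPM), in the other direction. They lay at 9.386, 7.76 and 9.20 CPM in sh_scramble and 10.5, 10.1 and 9.39 in sh_TMEFF2 (log2 0.19, SE 0.133, edgeR adjusted p = 0.388). All 95% intervals of ACVR1B, ACVR2A and ACVR2B in the 4 comparisons of groups lay within 1.5-fold in both directions.

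Between the lines, none of the 6 genes was called at either DHT level, where 0.571% of all genes tested were called without DHT and 6.77% with DHT. None was called for a difference of the DHT responses, where the share over all genes was 4.94%. By edgeR 1 of the 6 had an unadjusted p under 0.05 between the lines at each DHT level and 0 for the difference of responses, and DESeq2 and limma-voom called 0 in each. Libraries did not overlap for 2 of 6 genes with DHT in sh_scramble (41.8% of all genes tested), for 3 of 6 in sh_TMEFF2 (31.3%), for 2 of 6 between the lines without DHT (18.5%) and for 3 of 6 with DHT (32.5%). Among the last 3, ACVR2B was apart only by a near tie. The median log2 differences of the 6 were −0.15 and −0.13 with DHT in sh_scramble and sh_TMEFF2, −0.02 and −0.14 between the lines without and with DHT, and −0.06 for the difference of responses, beside −0.01, −0.02, −0.00, 0.00 and 0.01 over all genes tested. The comparisons share groups and are not independent. The plot of fold changes shows them with their intervals.

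**Figure D4:**
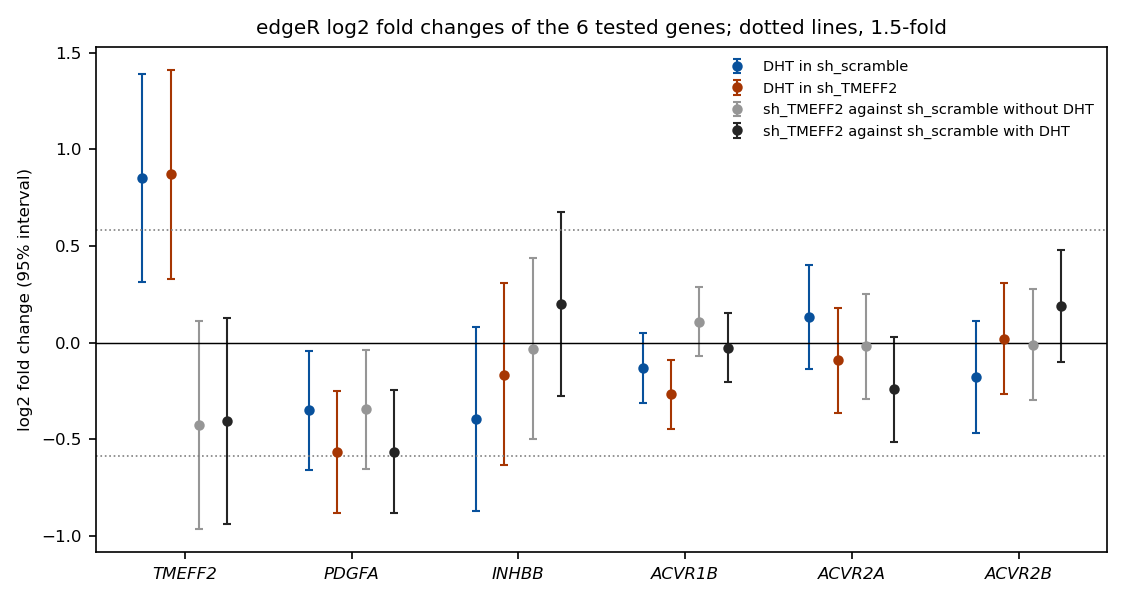
edgeR log2 fold changes with 95% intervals (vertical axis) of the 6 tested genes (horizontal axis) in 4 comparisons, DHT in each line and sh_TMEFF2 against sh_scramble at each DHT level. Dotted lines mark 1.5-fold; the TMEFF2 points for DHT lie above the upper line, and the 2 lowest PDGFA points lie at −0.57 and −0.56, just inside the lower line.

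The wider pathway was described with 8 lists of 82 genes in all, of which 60 were tested. With DHT in sh_scramble 5 rose and 4 fell (15%, beside 11.9% over all genes tested), and in sh_TMEFF2 2 rose and 0 fell (3.33%, beside 4.88%). In sh_TMEFF2 against sh_scramble 0 were higher and 2 lower without DHT (3.33%, beside 0.571%), and 1 was higher and 5 lower with DHT (10.0%, beside 6.77%). The DHT responses differed between the lines for 5 genes (8.33%, beside 4.94%). Median log2 differences of the 60 genes in these 5 comparisons were −0.17, −0.14, 0.01, −0.03 and 0.01, against the medians over all genes given above. Among these are calls of INHBC and TGFB2, which were past the filter only through the groups in which they were high. Without this pair the counts were 3 higher and 4 lower of 58 genes (12.1%) with DHT in sh_scramble, 1 and 0 (1.72%) in sh_TMEFF2, 0 and 2 (3.45%) between the lines without DHT and 1 and 4 (8.62%) with DHT, and 4 responses differed (6.9%). With the replicate number as a block, the count of the 60 genes with DHT in sh_TMEFF2 was 5, since ID1, ID3 and LTBP2 were also called. Leaving out 1 library moved the count with DHT in sh_TMEFF2 to 1 (without +DHT replicate 3) or 4 (without −DHT replicate 3 or +DHT replicate 1). It moved the count between the lines without DHT to 1 (without any 1 library of sh_scramble −DHT or replicate 2 of any other group), and that of differing responses to 2 or 3 (without any 1 library other than sh_scramble +DHT replicate 2). Where a list below had 0 genes called, DESeq2 and limma-voom also called 0, and at most 6 of its genes had an unadjusted p under 0.05 by edgeR. The plot of DHT responses shows the 11 genes called in any comparison.

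**Figure D5:**
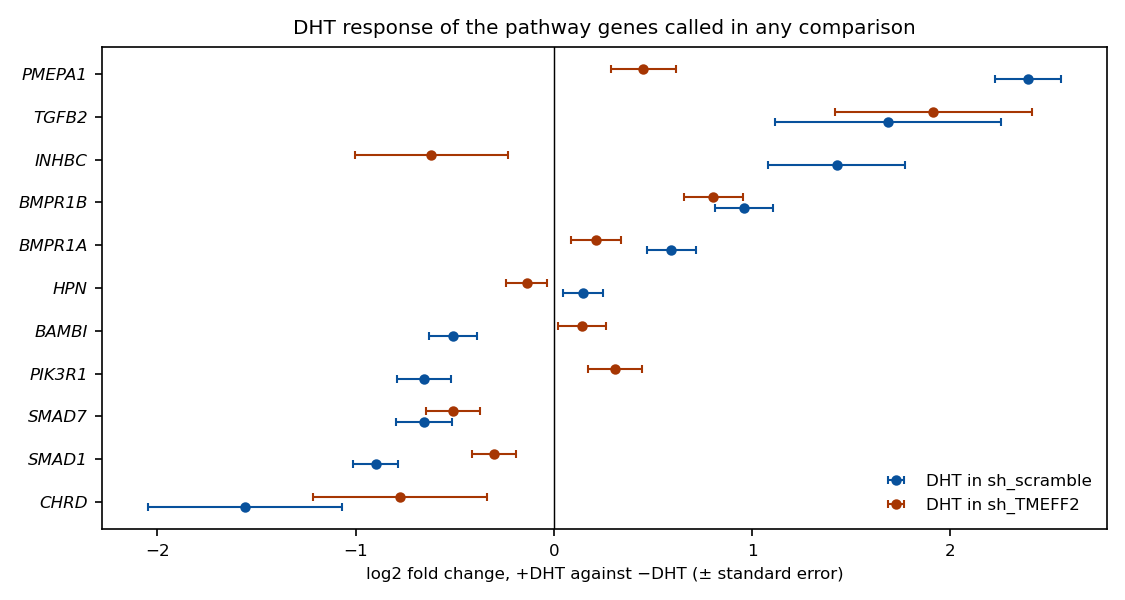
log2 fold change of +DHT against −DHT ± standard error (horizontal axis) in sh_scramble and sh_TMEFF2, 3 libraries per group, for the 11 pathway genes called in any comparison (vertical axis, ordered by the value in sh_scramble). PMEPA1 is at 2.39 in sh_scramble and 0.45 in sh_TMEFF2, and PIK3R1 lies on opposite sides of 0. INHBC and TGFB2 were past the filter on low counts only through the groups in which they were high, so their points are a description with no test.

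Among the ligands, 8 of 15 genes were tested, and INHA and INHBA, the inhibin alpha and activin beta-A genes, were not. INHBC, another inhibin beta subunit gene, and TGFB2 were called, and both were scarce. The filter asks for 0.472 CPM in at least 3 libraries, which this pair reached only through the groups in which they were high, so their counts are a description with no test. INHBC had 9, 8 and 8 counts in sh_scramble −DHT, 20, 22 and 24 in sh_scramble +DHT, 6, 13 and 10 in sh_TMEFF2 −DHT and 6, 4 and 9 in sh_TMEFF2 +DHT, so that the libraries of sh_scramble +DHT were above all others. TGFB2 had 2 to 4 counts in sh_scramble −DHT and 7 to 12 with DHT, and 2 to 7 and 12 to 29 in sh_TMEFF2. Of the other 6 ligand genes, INHBB among them, edgeR called 0 in each comparison. In the order used for the 60 genes 2, 0, 0, 1 and 1 of them had an unadjusted p under 0.05, limma-voom called 0, and DESeq2 called 1, for the difference of responses. Their median log2 difference was −0.34 and 0.13 with DHT in sh_scramble and sh_TMEFF2 and −0.28 and −0.005 between the lines without and with DHT.

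Of 14 receptor and coreceptor genes 10 were tested, and ACVR1C, TGFBR2, TDGF1 and CFC1 were not. BMPR1B, a type I receptor for bone morphogenetic proteins, differed in all 4 comparisons of groups. Its levels were 126, 151 and 144 CPM in sh_scramble −DHT, 284, 264 and 269 in sh_scramble +DHT, 52.9, 47.8 and 72.0 in sh_TMEFF2 −DHT and 85.7, 94.4 and 121 in sh_TMEFF2 +DHT. No groups in these comparisons overlapped. BMPR1B rose with DHT 1.94-fold in sh_scramble and 1.74-fold in sh_TMEFF2 (log2 0.96 and 0.80, edgeR adjusted p = 0.000397 and 0.00465), and it was 2.44-fold lower in sh_TMEFF2 without and 2.71-fold lower with DHT (log2 −1.29 and −1.44, edgeR adjusted p = 0.00149 and 3.8e-05).

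Its relative BMPR1A rose 1.51-fold with DHT in sh_scramble (log2 0.59, SE 0.125, edgeR adjusted p = 0.00376) and was 1.53-fold lower between the lines with DHT (log2 −0.61, SE 0.125, edgeR adjusted p = 0.00523). These values lie at the 1.5-fold limit and fell under it without sh_scramble +DHT replicate 2 in both comparisons, without sh_scramble −DHT replicate 3 in the former and without sh_TMEFF2 +DHT replicate 1 in the latter. BAMBI, a pseudoreceptor that blocks type I receptors, was at 51.1, 43.5 and 36.9 CPM in sh_scramble −DHT and 34.4, 29.7 and 28.4 in sh_scramble +DHT, and at 35.1, 29.0 and 31.7 and 37.6, 36.0 and 32.2 in sh_TMEFF2 without and with DHT. Its response differed between the lines (log2 0.65, SE 0.172, edgeR adjusted p = 0.0499), a call kept with 1 library left out only without sh_scramble −DHT replicate 3 or +DHT replicate 1. In all, 2 receptor genes rose with DHT in sh_scramble, 1 rose in sh_TMEFF2, 1 was lower between the lines without DHT and 2 with DHT, with list medians of −0.17, 0.04, −0.13 and −0.06 on the log2 scale.

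Of 9 extracellular antagonists 5 were tested, since FST, FSTL5, CER1 and NOG were not. CHRD, the gene of chordin, fell with DHT in sh_scramble (14 to 32 counts without, 4 to 11 with DHT, log2 −1.56, SE 0.489, edgeR adjusted p = 0.0322), and its exons overlap those of THPO on the other strand. That call was lost without −DHT replicate 1 (log2 −1.17), +DHT replicate 2 (−1.37) or +DHT replicate 3 (−1.30). No antagonist was called in the other comparisons, and the list medians were −0.23 and −0.29 with DHT in sh_scramble and sh_TMEFF2 and −0.04 and 0.30 between the lines without and with DHT. FSTL3, a follistatin-like gene, had group means of 12.6, 10.8, 11.5 and 9.04 CPM in the order used for PDGFB.

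All 15 genes of SMAD signal transduction were tested. SMAD1, an effector of bone morphogenetic protein signals, fell with DHT in sh_scramble, from 27.5, 29.6 and 29.4 to 14.6, 16.9 and 14.9 CPM (log2 −0.90, SE 0.113, edgeR adjusted p = 8.51e-05). In sh_TMEFF2 it was at 27.2, 35.1 and 25.9 CPM without and 23.4, 24.0 and 24.1 with DHT (log2 −0.30, SE 0.110, edgeR adjusted p = 0.0929). It was higher in sh_TMEFF2 with DHT (log2 0.62, SE 0.113, edgeR adjusted p = 0.00242), and its responses differed (log2 0.60, SE 0.157, edgeR adjusted p = 0.0486), which was kept with 1 library left out only without sh_scramble +DHT replicate 2 or sh_TMEFF2 −DHT replicate 2. SMAD7, an inhibitory SMAD that is itself induced by the pathway, fell 1.58-fold with DHT in sh_scramble (log2 −0.66, SE 0.141, edgeR adjusted p = 0.00408), a value of −0.56 without −DHT replicate 2, and in sh_TMEFF2 its difference of 1.42-fold was under the limit (log2 −0.51, SE 0.137, edgeR adjusted p = 0.0289). SMAD2, SMAD3 and SMAD4, which carry activin signals, were called in no comparison without a block, with group means of 90.2 to 102, 12.3 to 19.1 and 67.7 to 76.4 CPM. With the replicate number as a block SMAD3 was called as lower with DHT in sh_scramble (log2 −0.60, edgeR adjusted p = 0.0226, against −0.56 and 0.183 without it). In this list 0 genes rose and 2 fell with DHT in sh_scramble, 0 were called in sh_TMEFF2 or between the lines without DHT, and 1 was higher between the lines with DHT, with medians of −0.09, −0.20, 0.03 and 0.01 on the log2 scale.

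Of the SMAD-responsive genes 7 were tested, and CTGF and TGFBI were not. PMEPA1, which is induced by TGF-beta and by androgen and whose product restrains SMAD signals, had the largest log2 fold change among the pathway genes called in a comparison of groups. In sh_scramble it rose 5.25-fold with DHT, from 50.4, 45.2 and 47.6 CPM to 271, 237 and 244 CPM (log2 2.39, SE 0.168, edgeR adjusted p = 7.31e-07). In sh_TMEFF2 it was at 38.7, 43.6 and 49.9 CPM without and 43.5, 77.9 and 59.1 with DHT, overlapping (log2 0.45, SE 0.163, edgeR adjusted p = 0.0903). The responses differed by −1.94 on the log2 scale (SE 0.230, edgeR adjusted p = 0.000609), and with DHT PMEPA1 was 4.16-fold lower in sh_TMEFF2 (log2 −2.06, SE 0.165, edgeR adjusted p = 7.14e-06). The list had 1 gene higher (PMEPA1) and 1 lower (SMAD7) with DHT in sh_scramble, 0 called in sh_TMEFF2 or between the lines without DHT, and 1 lower between the lines with DHT. By edgeR 6 of the 7 genes had an unadjusted p under 0.05 with DHT in sh_TMEFF2, and 3 of 7 between the lines without DHT. The share of all genes at this limit is not given, so these counts are a description only. With DHT in sh_TMEFF2, 13.1% of all genes tested passed the adjusted p of 0.05 by edgeR. The median log2 difference of the list with DHT was −0.48 in sh_scramble and −0.77 in sh_TMEFF2, opposite in sign to the change of PMEPA1, and 0.33 and 0.15 between the lines without and with DHT. With the replicate number as a block ID3, a well-known target of bone morphogenetic protein signals, was called as lower with DHT in sh_scramble and in sh_TMEFF2 (log2 −1.25 and −1.22, edgeR adjusted p = 0.0381 and 0.0426) and as higher in sh_TMEFF2 with DHT (log2 1.39, edgeR adjusted p = 0.0336). Its relative ID1 (log2 −1.39, edgeR adjusted p = 0.0458) and LTBP2, the gene of a latent TGF-beta binding protein (log2 −0.81, edgeR adjusted p = 0.0488), were then also called as lower with DHT in sh_TMEFF2. Without the block these differences did not pass the test (edgeR adjusted p = 0.079 to 0.116). Across the lines with DHT, deviations of same-numbered libraries correlated at 0.164 for number 1, −0.06 for number 2 and 0.195 for number 3. The pairing that the block assumes was thus not seen for every number in the ID3 difference between the lines.

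All 10 adaptor and phosphatase genes of PDGF receptor signals were tested, and PIK3R1, the regulatory subunit gene of phosphoinositide 3-kinase, was the only gene of this list called in any comparison. It fell with DHT in sh_scramble, from 197, 197 and 172 to 131, 116 and 112 CPM (log2 −0.65, SE 0.135, edgeR adjusted p = 0.00325), whereas in sh_TMEFF2 it was at 139, 96.6 and 120 CPM without and 175, 137 and 128 with DHT (log2 0.31, SE 0.135, edgeR adjusted p = 0.163). The responses differed by 0.96 on the log2 scale (SE 0.191, edgeR adjusted p = 0.0132). Without DHT PIK3R1 was lower in sh_TMEFF2 (log2 −0.67, SE 0.135, edgeR adjusted p = 0.0355), a call that was lost without any 1 of 7 libraries, which were the 3 of sh_scramble −DHT, sh_TMEFF2 −DHT replicates 2 and 3 and replicate 2 of each +DHT group (edgeR adjusted p = 0.0539 to 0.132). The list medians were −0.12 and −0.13 with DHT in sh_scramble and sh_TMEFF2 and 0.08 and 0.11 between the lines without and with DHT.

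Of the proteases that release the outer part of TMEFF proteins and the TMEFF2-binding enzyme SARDH, 3 of 4 were tested, SARDH being too low. HPN, a membrane serine protease, was lower in sh_TMEFF2 with DHT, at 132 to 144 CPM against 177 to 238 in sh_scramble (log2 −0.62, SE 0.103, edgeR adjusted p = 0.00131), and it fell under the 1.5-fold limit without sh_scramble +DHT replicate 1 (−0.58) or 3 (−0.53). ADAM10 and ADAM17 had group means of 209 to 252 and 23.2 to 27.5 CPM and were not called in any comparison, as was the case for HPN in the other 4, with medians of the 3 genes of 0.15, −0.14, −0.02 and −0.27 on the log2 scale.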

How the data were processed

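RNA-seq of 12 LNCaP libraries was analysed from the gene table of the authors, who trimmed reads with Trimmomatic, ran FastQC and quantified transcripts with kallisto 0.42.3 on GRCh38. The deposited values are estimated counts scaled to transcript length and library size, so a count is not a read. The 2 columns of each library were summed and rounded (columns without a library, 0). Analysis was in R 4.3.3 with edgeR 4.0.16, TMM (factors 0.955 to 1.037) and filterByExpr (minimum count 10, total 15). All 12 libraries were fitted with 1 coefficient per group, the quasi-likelihood test was used, and genes were called at 1.5-fold and a Benjamini-Hochberg adjusted p of 0.05, with responses between lines called on the adjusted p alone. The study's methods used DESeq2. The test was checked on simulated counts.

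Deviations of same-numbered libraries from their group means correlated at 0.196 to 0.272 in the DHT comparison of sh_scramble and 0.216 to 0.341 in that of sh_TMEFF2. The numbers were therefore read as pairs there in the ratios and in the block alternative. The main fit and its p-values carried no block. Columns of 1 library differed less (median chi-square over its expected value 2.48 to 2.77) than replicates (4.07 to 5.04). Named were the 9 genes, the called pathway genes (at most 4 per list and comparison), the 3 profiles nearest to TMEFF2, KLK3, and list members given as context. The members and lists were chosen with earlier results of these data known. Counts of genes with an unadjusted p under 0.05 have no share over all genes beside them and are a description only. Alternatives were DESeq2 1.42.0, limma-voom (limma 3.58.1), other filters and scaling, the 6 libraries compared alone, the replicate block, each library left out, and, added after seeing the data, 1 column per library. Positions and shRNA matches are from GENCODE on GRCh38. The luminal marker list and some list members are not reported here.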

Additional observations from a re-analysis of the deposited data

Results flagged for a closer look

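The lines responded to DHT to a different extent, past the test, for 5 pathway genes. Each difference is given as the log2 response in sh_TMEFF2 minus that in sh_scramble (edgeR, 3 libraries per group). It was −1.94 for PMEPA1 and 0.96 for PIK3R1, and both passed in all 21 alternatives. It was −2.05 for INHBC, 0.65 for BAMBI and 0.60 for SMAD1, and these were lost in 12 of 18, 13 of 21 and 14 of 21 alternatives, including 10 of the 12 fits with 1 library left out for each gene. INHBC was past the filter on low counts only through sh_scramble +DHT, where it was high, and its value is a description. For none of the 6 tested genes among TMEFF2 and its partners did it pass (edgeR adjusted p = 0.590 to 0.986).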

How the results depend on the processing

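The TMEFF2 response to DHT kept its direction in every alternative. It lost its call in sh_scramble with column 2 alone (log2 0.73, adjusted p = 0.0608, edgeR) and in sh_TMEFF2 with the 6 libraries compared (0.88), column 1 (0.90) or column 2 (0.84), with edgeR adjusted p = 0.0605 to 0.0645. With 1 library left out it ranged from 0.75 to 1.02 in sh_scramble and 0.62 to 1.11 in sh_TMEFF2. PDGFA ranged from −0.64 to −0.46 for DHT in sh_TMEFF2 and from −0.62 to −0.51 between the lines with DHT. The replicate block gave TMEFF2 0.84 in sh_scramble (edgeR adjusted p = 0.00119) and 0.90 in sh_TMEFF2 (edgeR adjusted p = 0.00201), and it changed no call of the 9 genes. Among the other pathway genes it ended the call of TGFB2 with DHT in sh_scramble (edgeR adjusted p = 0.0542) and added ID3 and SMAD3 there, ID1, ID3 and LTBP2 with DHT in sh_TMEFF2 (5 calls, against 2) and ID3 between the lines with DHT.

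Differences near 0 changed sign: ACVR2B for DHT in sh_TMEFF2 (−0.11, column 2), ACVR2A (0.084, column 2), ACVR2B (0.00, column 1) and INHBB (0.069, column 1) between the lines without DHT, ACVR1B (0.031 with library size only, 0.058 with column 1) and ACVR2B (−0.039, column 2) between the lines with DHT, and, for the difference of responses, TMEFF2 (−0.053, column 1), ACVR1B (0.027, column 1) and ACVR2B (−0.028, column 2). With 1 library left out the ranges were −0.074 to 0.095 for ACVR2B with DHT in sh_TMEFF2, −0.100 to 0.092 for ACVR2A, −0.096 to 0.085 for ACVR2B and −0.15 to 0.11 for INHBB between the lines without DHT, −0.100 to 0.073 for ACVR1B with DHT, and −0.23 to 0.25 for the difference of the TMEFF2 responses.

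Counts of pathway genes called moved from 9 to 5 for DHT in sh_scramble (mean above 5 CPM, or column 2), from 2 to 1 for DHT in sh_TMEFF2 (DESeq2, where TGFB2 had no adjusted p, mean above 5 CPM, 6 libraries alone, or column 2; 1 to 4 with a library left out), from 2 to 1 between the lines without DHT (6 libraries alone or column 1; 1 to 3) and from 5 to 3 (limma-voom) or 2 (column 1, column 2; 2 to 5) for the difference of responses. Over all genes tested, 88 calls between the lines without DHT became 180 with DESeq2, 157 without a filter, 144 with the block, 46 with 6 libraries or column 1 and 50 with column 2 (32 to 117 with a library left out, under 50 without replicate 1 or 2 of sh_scramble −DHT or of sh_TMEFF2 −DHT). The 761 differences of responses became 1205 with DESeq2 and 494 with column 2 (465 to 765, under 494 without sh_scramble −DHT replicate 2, sh_scramble +DHT replicate 1 or sh_TMEFF2 −DHT replicate 2), and the 753 calls for DHT in sh_TMEFF2 ranged from 466 (without +DHT replicate 3) to 902. The cause was not tested. Across the lines the deviations of same-numbered libraries correlated less evenly, at 0.022 to 0.201 without DHT and −0.06 to 0.195 with DHT. The correlation was lowest for number 2 at both DHT levels, and the numbers were not read as pairs there. TMEFF1, PDGFRA and FST are limited by depth.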
